A study of Mus musculus with 8 samples.

Results

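Transcripts that textbook lists assign to macrophages were examined in RNA of Treg sorted from mice. Treg, or regulatory T cells, are CD4 T cells whose identity depends on the transcription factor Foxp3. The set was a written list of 32 genes, and the deposited table held all 32 of them among its 19826 genes. Of these, 14 are known from the red pulp macrophages of the spleen or from other tissue-resident macrophages, and 18 are expressed by myeloid cells more generally. The genes were selected on their known lineage but also on their normalized counts in these 8 libraries, with the comparison between the groups already known, so their differences between groups are given as a description, with no p-value and with counts of calls from which nothing is read.

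The series compared Treg with and without Pdpk1, the gene of the kinase PDK1 that activates AKT downstream of PI3K. One group, labelled Pdpk1 KO and called KO below, had the genotype Foxp3 YFP-Cre/+ Pdpk1 FL/FL. The other, called WT, had the genotype Foxp3 YFP-Cre/+ Pdpk1 +/+. Both groups thus carried 1 Foxp3 allele that drives YFP and Cre, on a C57BL/6 background, and neither was treated. Because the gene for Foxp3 lies on the X chromosome, such heterozygous animals hold Treg with and without Cre in the same animal. CD4+ YFP+ cells were sorted from spleen together with peripheral lymph nodes, and polyadenylated RNA of the sorted cells was sequenced. Each group had 4 libraries, numbered as in the labels, and 4 values given in a row are replicates 1 to 4 in that order. The labels do not say whether every library came from a mouse of its own, so any p-value measures the spread between these libraries, which may be technical.

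Red pulp macrophages clear aged red blood cells from the circulation. They break down heme with heme oxygenase, encoded by Hmox1, and return the iron to plasma through ferroportin, encoded by Slc40a1; in mice their development depends on the transcription factor SpiC. Resident macrophages also make the complement component C1q and carry receptors for dying cells, and nearly all macrophages depend on the growth factor receptor encoded by Csf1r. Some genes of the list, such as Axl and Lgmn, are used by other cells too. The RNA was bulk RNA, in which fewer cells of a type and less RNA per cell cannot be told apart.

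The libraries held between 17448095 and 26299577 reads assigned to genes. Values below are normalized counts, which are reads per gene divided by the authors' size factor of the library. A value of 0 allows up to 3 reads, equal to 2.56 to 3.38 normalized counts in the different libraries, a limit that covers counting error alone. Pdpk1 itself had 2505, 1900.1, 1872 and 1656 normalized counts in KO libraries and 2600, 2374, 1995 and 1923 in WT libraries (exact two-sided permutation test, p = 0.286, smallest possible p 0.0286). These counts sum over the whole gene, including any exons outside the loxP sites, so they do not check the deletion. Foxp3 averaged 5355 ± 743 normalized counts in KO and 5086 ± 740 in WT libraries (SD, n = 4 each). Summed over 12 T cell and Treg genes, the libraries held 105941 to 116064 normalized counts in KO and 117008 to 133582 in WT, ranges that do not overlap.

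The clearest feature of the macrophage genes was a shared order of libraries. Levels were highest in KO replicates 2 and 3, WT replicate 2 was often above KO replicates 1 and 4, and WT replicate 1 was the lowest library, or tied for it at 0, more often than any other, for 19 of the 32 genes. KO replicates 2 and 3 were the 2 highest libraries for 11 of the 14 red pulp and resident genes and for 12 of the 18 general myeloid genes. WT replicate 2 was the highest WT library for 24 of the 32 genes, above KO replicate 1 for 21 of them and above KO replicate 4 for 22. Apart from that order, 4 genes (Apoe, Fcgr3, Cd68 and Mpeg1) were higher in every KO library than in any WT library, and 2 (Axl and Cybb) were lower. In the whole table the groups did not overlap for 15.3% of the genes tested. The values of all 32 genes are shown by library in the map of members.

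**Figure D1:**
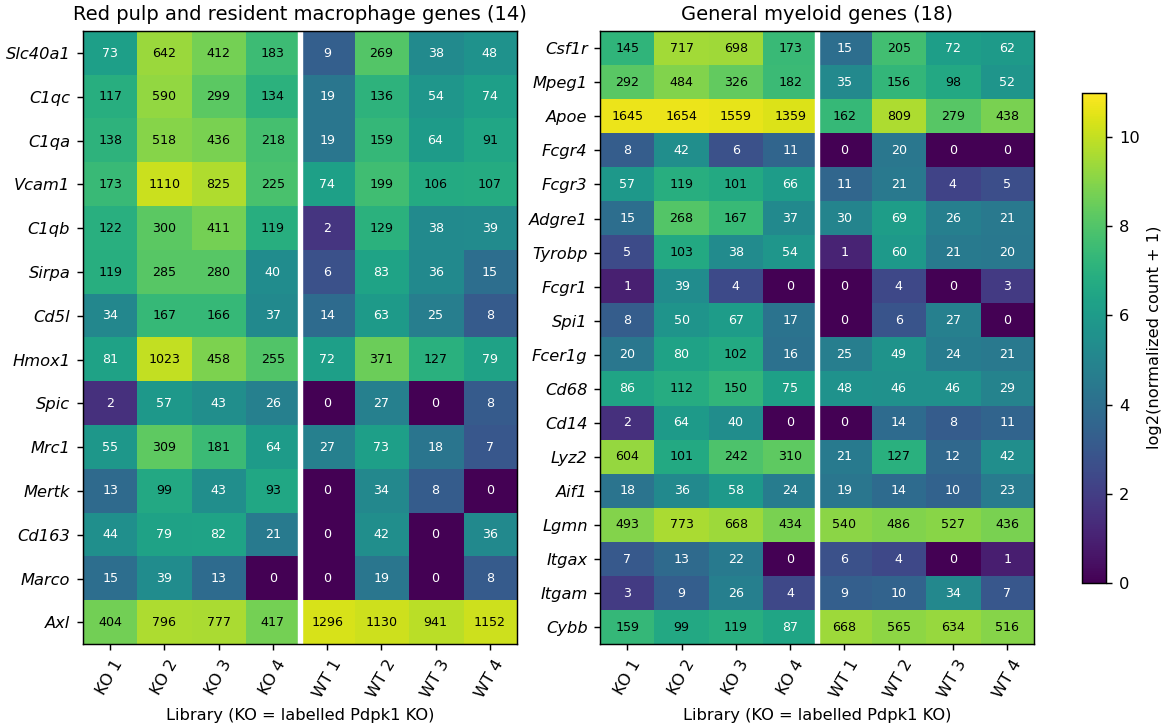
Each cell gives the normalized count of 1 gene (rows, in the 2 sets) in 1 library (columns, 4 KO left of 4 WT), coloured by log2(normalized count + 1). The columns of KO replicates 2 and 3 are the 2 highest for 23 of the 32 genes, and Axl and Cybb are brightest on the WT side.

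Genes of iron recycling followed this order. Slc40a1, the iron exporter ferroportin, had 72.6, 642, 412 and 183 normalized counts in KO libraries, against 9.02, 269, 37.7 and 48.3 in WT libraries. Hmox1, which degrades heme, had 81.0, 1023, 458 and 255 in KO libraries, against 72.2, 371, 127 and 79.0 in WT libraries. Spic, the transcription factor of red pulp macrophages, had 1.86, 57.0, 42.7 and 26.5 in KO libraries, against 0, 27.1, 0 and 7.90 in WT libraries. In all 3 genes KO replicate 2 was highest, WT replicate 2 was above KO replicate 1, and the groups overlapped. The mean of Slc40a1 was 3.6 times higher in KO than in WT libraries, that of Hmox1 2.80 times and that of Spic 3.66 times, while the ratio of KO replicate 2 to KO replicate 1 was 8.84, 12.6 and 30.6. Without WT replicate 2 the ratios of means were 10.3 for Slc40a1, 4.90 for Hmox1 and 12.2 for Spic, and without KO replicate 2 that of Hmox1 was 1.63. Cd163, the receptor that takes up hemoglobin bound to haptoglobin, had 43.8, 78.9, 82.0 and 21.3 normalized counts in KO libraries, against 0, 41.7, 0 and 36.0 in WT libraries, and was thus high in the same KO replicates.

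The genes of the 3 chains of C1q, which lie side by side on chromosome 4 (GRCm38, between positions 136880129 and 136898803), shared the order of libraries but not its details. KO replicates 2 and 3 were the highest for each chain, yet C1qc was higher in replicate 2 and C1qb in replicate 3. C1qa had 138, 518, 436 and 218 normalized counts in KO libraries, against 19.2, 159, 64.4 and 91.3 in WT libraries. C1qb had 122, 300.2, 411 and 119 in KO libraries, against 2.25, 129, 37.7 and 38.6 in WT libraries. C1qc had 117, 589.5, 299 and 134 in KO libraries, against 19.2, 136, 54.3 and 73.8 in WT libraries. For each chain the highest WT library was replicate 2, which lay above KO replicate 1 and, for C1qb and C1qc, above KO replicate 4 as well. The sum of the chains was 377, 1408, 1145 and 470.2 in KO libraries and 40.6, 424, 157 and 204 in WT libraries, a ratio of means of 4.12, or 6.36 without WT replicate 2. Per kilobase of exon, C1qa made up 43.4% to 54% of the C1q total in KO libraries and 44.8% to 60.6% in WT libraries. The C1qb share was 25.6% to 39.7% in KO and 6.81% to 34.7% in WT libraries, and the lowest of these, in WT replicate 1, came from a library with 36 C1q reads in all. Per kilobase, C1qa was the highest of the 14 red pulp and resident genes in KO libraries, at a mean of 315 normalized counts per kb, against 80.4 in WT libraries, where Axl was highest. Foxp3 averaged 1170.0 normalized counts per kb in KO and 1111 in WT libraries.

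Vcam1, an adhesion molecule that red pulp macrophages carry, had 173, 1110.0, 825 and 225 normalized counts in KO libraries, against 74.4, 199, 106 and 107 in WT libraries. The highest WT library, replicate 2, stood between KO replicates 1 and 4. Cd5l, a protein secreted by macrophages that is also called AIM, had 33.5, 167, 166 and 36.7 in KO libraries, against 13.5, 62.5, 24.9 and 7.90 in WT libraries. The mannose receptor gene Mrc1 had 54.9, 309, 181 and 64.0 in KO libraries, against 27.1, 73.0, 18.4 and 7.03 in WT libraries. WT replicate 2 exceeded KO replicates 1 and 4 for each of Cd5l and Mrc1. Marco, a scavenger receptor typical of marginal zone macrophages of the spleen, stayed between 0 and 39.5 in KO libraries and between 0 and 18.8 in WT libraries, and was at 0 in KO replicate 4 and WT replicates 1 and 3. Reads of Vcam1 could in part belong to Gm43109 on the opposite strand, since the strand setting of the counting was not given in the sources used here, but the overlap covers 61 of 8870 exonic bases.

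Receptors for dying cells were divided. Mertk, a receptor tyrosine kinase that binds dying cells through bridging proteins, had 13.03, 98.6, 42.7 and 93.0 normalized counts in KO libraries, against 0, 34.4, 8.29 and 0 in WT libraries. Sirpa, the inhibitory receptor for CD47, had 119, 285, 279.6 and 40.1 in KO libraries, against 5.64, 83.4, 35.9 and 14.9 in WT libraries. Axl, of the same kinase family as Mertk, had 404, 796, 777 and 417 in KO libraries, against 1296, 1129.9, 941 and 1152 in WT libraries. Every KO value of Axl was below every WT value, and its mean in KO was 0.530 of that in WT (598 ± 217 against 1129.8 ± 146 normalized counts, SD, n = 4 each). Among the KO libraries alone, Axl was still highest in replicates 2 and 3, as were all of the 14 red pulp and resident genes but Marco and Mertk. Among the WT libraries it was highest in replicate 1, where 11 of the 14 genes had their lowest value or were tied for it at 0. Mertk was nearly as high in KO replicate 4 as in KO replicate 2.

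Windows upstream of the RefSeq gene starts are shown for 6 genes, picked to cover the shared order and the genes that departed from it. Of the 32 genes, 22 had windows taken from the table of RefSeq promoters, in 26 windows of 250 bases that end at the base before the start. No windows were taken for C1qa, Adgre1, Spi1, Hmox1, Csf1r, Slc40a1, Sirpa, Cd14, Tyrobp and Vcam1. For Csf1r and Cd14 this does not mean that the table lacks them, since member windows on their chromosome were left out. Each window was searched for GAGGAA and its reverse complement TTCCTC, the core bound by the ETS factors PU.1, encoded by Spi1, and SpiC. The motif does not overlap itself, and no other motif was searched. It was present in 15 of the 26 windows, belonging to 13 genes, against 23.3% of the 32851 windows of all genes. Capitals mark the motif, and all windows are written 5′ to 3′ on the strand of the gene, on build GRCm38.p6.
Mrc1, chr2:14229164-14229413, plus strand: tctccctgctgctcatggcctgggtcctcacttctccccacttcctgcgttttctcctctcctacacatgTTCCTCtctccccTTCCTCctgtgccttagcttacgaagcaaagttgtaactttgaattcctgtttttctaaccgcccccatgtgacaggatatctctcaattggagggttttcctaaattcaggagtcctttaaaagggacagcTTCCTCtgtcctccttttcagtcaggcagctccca
Cd5l, chr3:87357631-87357880, plus strand: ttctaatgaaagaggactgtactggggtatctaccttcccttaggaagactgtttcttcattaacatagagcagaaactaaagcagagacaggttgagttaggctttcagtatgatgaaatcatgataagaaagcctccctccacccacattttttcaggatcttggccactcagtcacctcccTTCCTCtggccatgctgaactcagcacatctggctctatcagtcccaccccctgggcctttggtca
C1qc, chr4:136892915-136893164, minus strand: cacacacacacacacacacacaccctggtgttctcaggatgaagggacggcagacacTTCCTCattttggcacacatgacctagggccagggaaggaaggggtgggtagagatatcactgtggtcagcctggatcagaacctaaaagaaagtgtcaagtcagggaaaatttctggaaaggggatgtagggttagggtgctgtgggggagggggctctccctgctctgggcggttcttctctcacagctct
Spic, chr10:88683024-88683273, minus strand: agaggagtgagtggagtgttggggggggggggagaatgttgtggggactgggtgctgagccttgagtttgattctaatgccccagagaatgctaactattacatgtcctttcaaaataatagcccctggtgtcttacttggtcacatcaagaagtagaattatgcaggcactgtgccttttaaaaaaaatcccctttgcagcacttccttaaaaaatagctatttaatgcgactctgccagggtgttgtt
Axl, chr7:25788734-25788983, minus strand: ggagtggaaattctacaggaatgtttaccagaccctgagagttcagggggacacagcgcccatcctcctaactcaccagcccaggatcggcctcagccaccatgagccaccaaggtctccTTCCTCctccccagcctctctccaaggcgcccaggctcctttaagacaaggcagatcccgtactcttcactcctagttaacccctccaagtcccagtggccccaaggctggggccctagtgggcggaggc
Cybb, chrX:9469325-9469574, minus strand: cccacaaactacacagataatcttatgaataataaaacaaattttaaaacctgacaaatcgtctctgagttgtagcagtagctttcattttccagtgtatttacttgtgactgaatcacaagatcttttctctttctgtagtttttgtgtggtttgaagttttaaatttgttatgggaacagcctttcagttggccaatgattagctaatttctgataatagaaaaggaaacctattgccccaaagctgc
The Mrc1 window held 3 matches, those of Cd5l, C1qc and Axl held 1 each, and those of Spic and Cybb held none. Axl, which was lower in KO libraries, thus had a match as the C1qc and Cd5l windows did, while Spic, which followed the shared order, had none. A match describes letters and is not a binding site, and the absence of one concerns only these windows. For 19 of the 26 windows the bases after the start were found in a GENCODE transcript of the gene. Axl was not among them, and the starts used for Mrc1, Spic, C1qc and Cybb lie inside longer GENCODE gene models.

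Of the general myeloid genes, Csf1r followed the red pulp genes closely, and Adgre1 and Spi1 less so. Their Pearson r with the mean log2 level of the red pulp and resident genes was 0.983, 0.793 and 0.744. Csf1r, the receptor for the macrophage growth factor CSF1, had 145, 717, 698 and 173 normalized counts in KO libraries, against 14.7, 205, 71.8 and 62.4 in WT libraries. Adgre1, the gene of the F4/80 antigen, had 14.9, 268, 167 and 36.7 in KO libraries, against 30.4, 68.8, 25.8 and 21.1 in WT libraries. Spi1, the transcription factor PU.1, had 8.38, 50.4, 67.4 and 17.1 in KO libraries, against 0, 6.25, 26.7 and 0 in WT libraries. KO replicates 2 and 3 were the 2 highest libraries for all 3 genes. KO replicate 1 lay below all 4 WT libraries for Adgre1 only, and for Spi1 the highest WT library was replicate 3, not replicate 2. Of the 5774 exonic bases of Csf1r, 873 overlap Hmgxb3 on the opposite strand, and the reads there cannot be told apart without the strand.

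Fc receptor genes differed among themselves. Fcgr3, a low-affinity activating receptor for IgG, had 56.8, 119, 101 and 65.7 normalized counts in KO libraries, against 11.3, 20.9, 3.68 and 5.27 in WT libraries. No WT value reached the lowest KO value, and the KO mean was 8.35 times the WT mean, or 12.7 times without WT replicate 2. Fcgr1, the high-affinity IgG receptor, was at 39.5 in KO replicate 2 and at most 4.49 in the other 7 libraries. Fcgr4 was likewise led by KO replicate 2, at 41.6, then WT replicate 2, at 19.8, and was at 0 in the other 3 WT libraries. Fcer1g, the signalling chain shared by these receptors, had 19.6, 80.0, 102 and 16.2 in KO libraries, against 24.8, 49.0, 23.9 and 21.1 in WT libraries. Tyrobp, the adaptor DAP12, had 4.66, 103, 38.2 and 53.8 in KO libraries, against 1.13, 60.5, 21.2 and 20.2 in WT libraries. The groups overlapped for both adaptors, and for Tyrobp WT replicate 2 was the second highest library. Fcgr3 belongs to a family with closely similar members, and how reads matching several copies were counted was not given in the sources used here.

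Genes of lysosomes and killing split into 3 patterns. Cd68, a lysosomal membrane protein, had 85.7, 112, 150.4 and 75.1 normalized counts in KO libraries, against 48.5, 45.9, 46.0 and 29.0 in WT libraries. Mpeg1, the pore-forming perforin-2, had 292, 484, 326 and 182 in KO libraries, against 35.0, 156, 97.6 and 51.8 in WT libraries. These genes were higher in every KO library, with KO replicates 2 and 3 on top of a difference that KO replicates 1 and 4 also showed. Lyz2, lysozyme, had 604, 101, 242 and 309.8 in KO libraries, against 21.4, 127, 12.0 and 42.2 in WT libraries. Its order within KO was the reverse of the shared one, since KO replicate 1 was highest and KO replicate 2, the highest library for 21 of the 32 genes, was lowest and below WT replicate 2. Lyz2 has a near copy, Lyz1, so its reads are uncertain to that extent. Lgmn, a lysosomal protease, had 493, 773, 668 and 434 in KO libraries, against 540.0, 486, 527 and 436 in WT libraries, with means of 592 ± 156 in KO and 497 ± 46.6 in WT (SD, n = 4 each).

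Apoe, the lipid carrier apolipoprotein E, was the highest gene of the list per kilobase in KO libraries, at a mean of 727 normalized counts per kb, against 197 in WT libraries. It had 1645, 1654, 1559 and 1359 normalized counts in KO libraries, against 162, 809, 279 and 438 in WT libraries. The KO libraries were nearly level with each other, where Slc40a1 or Csf1r varied several-fold, while the WT libraries followed the shared order with replicate 2 highest and replicate 1 lowest. Cybb, the catalytic subunit of the phagocyte NADPH oxidase, had 159, 98.6, 119 and 87.1 in KO libraries, against 668.5, 565, 634 and 516 in WT libraries. Its mean in KO was 0.195 of that in WT, with no overlap, and it followed the shared order in neither group. Aif1, the actin-binding protein IBA1, had 17.7, 36.2, 58.4 and 23.9 in KO libraries, against 19.2, 13.6, 10.1 and 22.8 in WT libraries, overlapping between the groups.

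The remaining myeloid markers were low in most libraries. Cd14, the co-receptor for lipopolysaccharide, was at 63.6 and 40.4 in KO replicates 2 and 3, at 1.86 and 0 in KO replicates 1 and 4, and between 0 and 13.6 in WT libraries. The integrin genes Itgam and Itgax, the CD11b and CD11c chains, lay between 2.79 and 25.8 and between 0 and 22.4 in KO libraries, and between 7.03 and 34.1 and between 0 and 5.64 in WT libraries. Itgam was highest in WT replicate 3, and 3450 of its 5024 exonic bases overlap Gm49368 on the same strand. Over the whole list, 9 of the 32 genes were at 0 in at least 1 library, 4 of them red pulp or resident genes.

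Summed levels put the same order in single values. The 13 red pulp and resident genes other than Axl summed to 985, 5218, 3648 and 1416 normalized counts in KO libraries, against 242, 1604, 515 and 519.9 in WT libraries. WT replicate 2 held more than KO replicates 1 and 4, and the KO mean was 3.91 times the WT mean (2817 ± 1981 against 720.3 ± 603, SD, n = 4 each), or 6.62 times without WT replicate 2. With Axl among them, the 14 genes summed to 1389, 6014, 4425 and 1833 in KO libraries, against 1539, 2734, 1455 and 1672 in WT libraries, a ratio of 1.85. Axl was the gene of this set with a lower mean in KO, and including it brought the ratio nearer to 1. The 15 general myeloid genes other than Cybb, Apoe and Lgmn, left out after their values were seen, summed to 1271, 2238, 2050.1 and 969 in KO libraries, against 221, 806, 381 and 297 in WT libraries. Every KO library lay above every WT library in that sum, and the ratio of means was 3.83. All 18 general myeloid genes summed to 3568, 4762, 4397 and 2849 in KO libraries, against 1592, 2665, 1821 and 1688 in WT libraries, a ratio of 2.01.

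**Figure D2:**
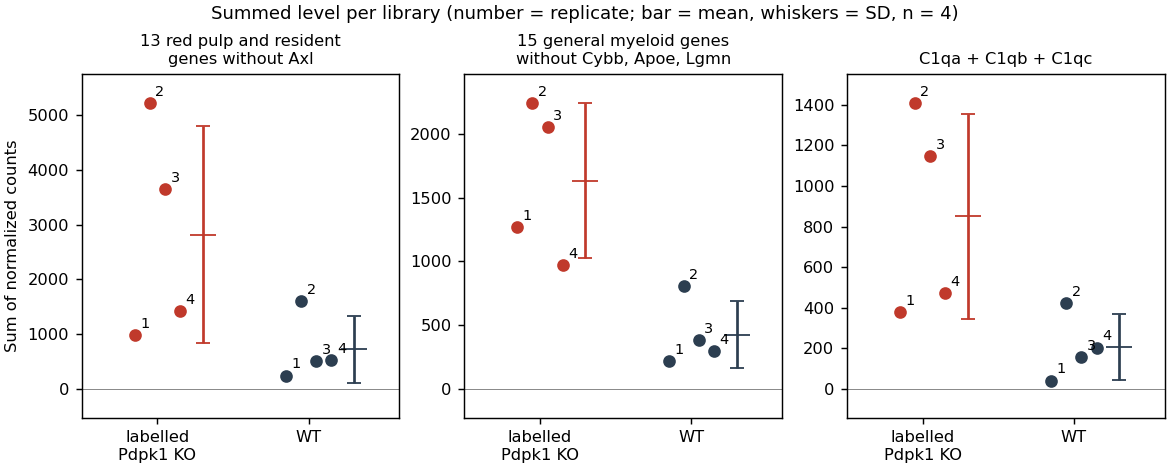
Summed normalized counts of the named gene sets (vertical axes) in each library, with KO left of WT, points numbered by replicate and bars for the group mean and SD (n = 4 each). KO replicates 2 and 3 stand at 5218 and 3648 in the sum of 13 red pulp and resident genes, while WT replicate 2, at 1604, stands above KO replicates 1 and 4.

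Correlations of log2(normalized count + 1) over the 8 libraries describe how tightly the genes kept together. These points share libraries, depth and size factors, and the genes were chosen with their values known, so no test is attached. Between pairs of the 14 red pulp and resident genes the median Pearson r was 0.815, with 77 of 91 pairs over 0.5. Without Axl, 77 of 78 pairs were over 0.5. Between pairs of general myeloid genes the median was 0.547, with 85 of 153 pairs over 0.5. Pairs that took 1 gene from each set had a median of 0.667, so general myeloid genes were on the median closer to the red pulp genes than to one another. After the mean of each group was subtracted, which leaves only the differences among libraries of 1 group, the medians were 0.685 for the red pulp and resident genes, 0.43 for the general myeloid genes and 0.565 between the sets. The genes thus varied together among libraries of 1 genotype as well as between the groups.

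Ratios within a library show which genes kept a fixed proportion to C1q. Csf1r was 0.368 to 0.610 of the summed C1q counts in KO libraries and 0.306 to 0.484 in WT libraries, although C1q itself varied 34.7-fold over the 8 libraries. Slc40a1 was 0.193 to 0.456 of C1q in KO and 0.222 to 0.634 in WT libraries. Axl was 0.565 to 1.07 of C1q in KO libraries and 2.66 to 31.9 in WT libraries, and Cybb 0.070 to 0.422 in KO and 1.33 to 16.5 in WT libraries. The Csf1r and Slc40a1 ranges overlapped between the groups, and those of Axl and Cybb did not. Nor did those of Fcer1g, at 0.0345 to 0.0892 in KO and 0.103 to 0.611 in WT libraries, and of Itgam, too low to be tested, at 0.0062 to 0.0226 and 0.0246 to 0.222. The C1q sum had a lower mean in WT than in KO libraries, so a gene at a similar level in both groups has a higher ratio in WT. Apoe was 1.17 to 4.36 of C1q in KO and 1.78 to 4 in WT libraries, ranges that overlapped. The highest WT ratios of Axl, Cybb, Fcer1g, Itgam and Apoe are those of replicate 1, where C1q rests on 36 reads.

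**Figure D3:**
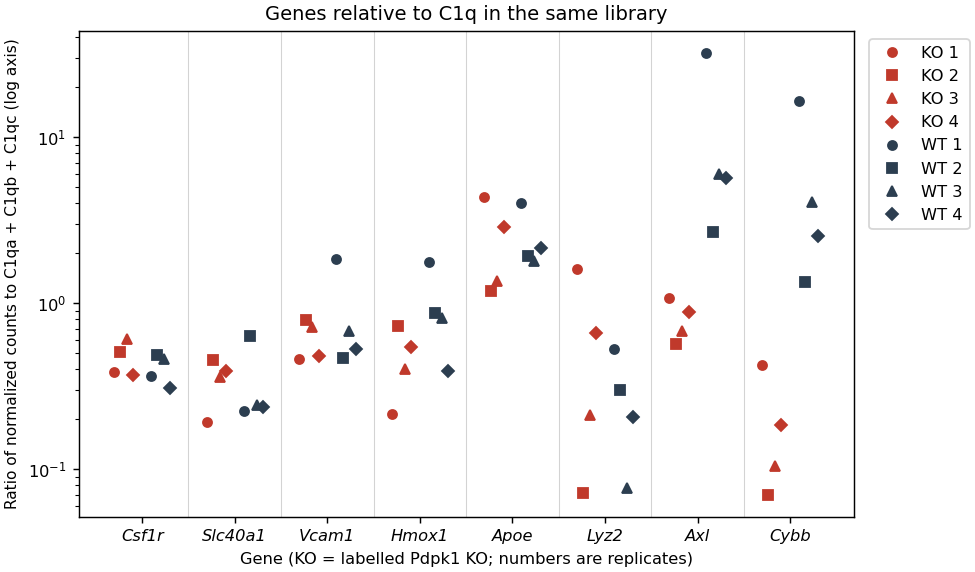
Ratio of single genes to the summed C1qa, C1qb and C1qc normalized counts of the same library (vertical log axis), KO points left of WT points for each gene. Csf1r lies between 0.306 and 0.610 in all 8 libraries, while Axl lies at 0.565 to 1.07 in KO and 2.66 to 31.9 in WT libraries.

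The fit across all 13847 genes tested gives the background for these differences. With limma on log2(normalized count + 1), 9.47% of genes passed an adjusted p of 0.05, with 4.41% higher and 5.06% lower in KO than in WT. Of the 28 members tested, 12 were higher, 2 were lower and 14 did not pass, and nothing is read from this count, since the comparison served to choose the list. Fcgr1, Fcgr4, Itgam and Itgax were too low to be tested. The genes past the threshold were Vcam1, Mrc1, C1qa, C1qb, C1qc, Sirpa, Csf1r, Lyz2, Fcgr3, Cd68, Mpeg1 and Apoe on the higher side, and Axl and Cybb on the lower. The median log2 change was 2.22 over the 14 red pulp and resident genes and 1.19 over the 14 general myeloid genes tested, against -0.007 over all genes tested. The number of higher members depended on single libraries. It was 4 without KO replicate 2 and 4 without KO replicate 3, in both cases Apoe, Fcgr3, Lyz2 and Mpeg1, and 5 without WT replicate 4, when C1qa was added to these. It was 16 without KO replicate 1 or without WT replicate 2. DESeq2 put 8 of the members higher, Cd5l among them.

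Outside the list, the genes whose libraries were ordered most like the mean log2 level of the red pulp and resident genes were sought among 1761 tested genes with a wide range. That mean was 5.87, 8.11, 7.62 and 6.16 in KO libraries and 3.42, 6.72, 4.53 and 4.90 in WT libraries on the log2(normalized count + 1) scale. The 19 genes described here, of the 20 most similar, had a Pearson r of 0.888 to 0.974 over the 8 libraries, and 0.684 to 0.968 without WT replicate 1 and KO replicate 2, the libraries farthest from the median. Trf, the iron carrier transferrin, had 81.0, 792, 538 and 199.7 normalized counts in KO libraries, against 20.3, 164, 62.6 and 64.1 in WT libraries. Clec4n, the fungal receptor Dectin-2, had 7.45, 78.9, 110.0 and 39.3 in KO libraries, against 0, 32.3, 2.76 and 0.88 in WT libraries. H2-Aa, an MHC class II chain, had 28.9, 132, 129 and 61.4 in KO libraries, against 6.76, 99.0, 23.9 and 13.2 in WT libraries. WT replicate 2 was the highest WT library for all 19 genes, and KO replicates 2 and 3 the 2 highest of all libraries for 15. The others were Cadm1, Plbd1, Kcnj10, Gfra2, Slc24a5, Zfhx3, Slpi, Basp1, Sort1, Pilra, P2ry13, Epb41l3, Plcg2, Lrfn1, Kif9 and Adgra3.

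**Figure D4:**
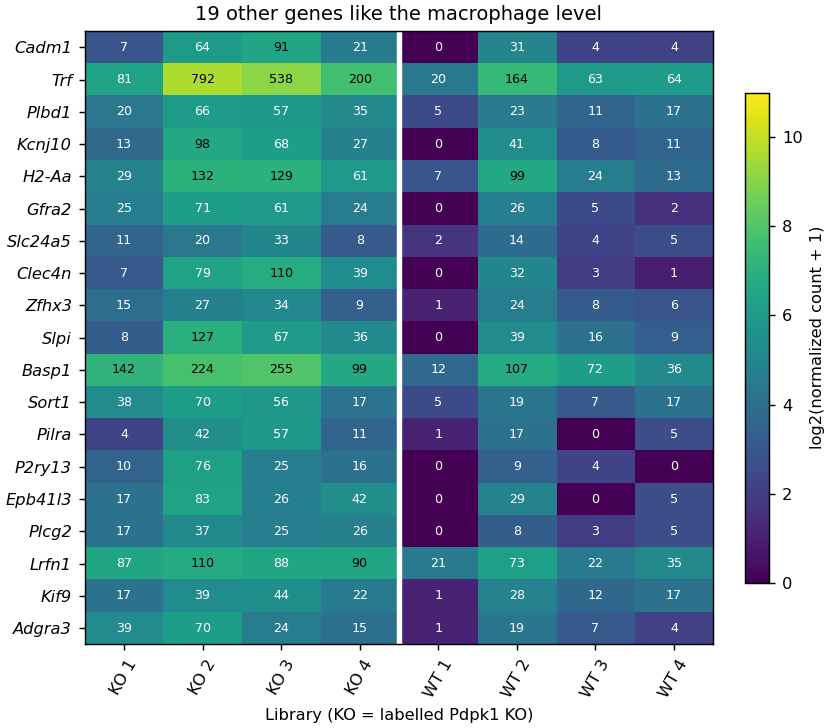
Normalized counts (numbers) of 19 of the 20 genes outside the list with the highest correlation to the mean log2 level of the red pulp and resident genes, in 4 KO libraries left of 4 WT libraries, coloured by log2(normalized count + 1). WT replicate 2 is the highest WT library in all 19 rows.

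Of 24 further macrophage genes, 13 were tested, with a median log2 change of 1.03. Trf had a higher mean in KO (403 ± 324 against 77.7 ± 60.8 normalized counts in WT, SD, n = 4 each, log2 change 2.23). It was also picked above for following the red pulp level, so no p-value is given. Its groups overlapped, with WT replicate 2 (164) above KO replicate 1 (81.0). The transcription factor gene Cebpa fell in KO (22.0 ± 7.62 against 160.2 ± 27.1, log2 change -2.84, limma adjusted p = 7.6e-05). Cebpa had 18.6, 32.9, 21.3 and 15.4 in KO libraries, against 169, 130.3, 148 and 193 in WT libraries, without overlap and without the shared order. It was named after its values were seen. Cebpb had a log2 change of -1.08 and did not pass the limma threshold, though DESeq2 called it. Slc48a1 had 1202, 1187, 1079 and 1033 in KO libraries, against 1011, 996, 970 and 1026 in WT libraries. Its log2 change was 0.17, without overlap and without the shared order. Blvrb had 101, 220, 266 and 138 in KO libraries, against 90.2, 193, 171 and 162 in WT libraries (log2 change 0.19). Neither of these passed the limma threshold. Siglec1, which marks metallophilic and lymph node macrophages, was at 6.51 ± 3.14 in KO and 6.79 ± 4.65 in WT libraries. Among 16 lysosome genes, which T cells also use, 1 rose and 1 fell, and the median log2 change was 0.04. These were Npc2, a cholesterol carrier (log2 change 0.41, limma adjusted p = 0.0352), and Grn, progranulin (log2 change -1.04, limma adjusted p = 0.000957). Grn was named after its values were seen. Of 7 MHC class II genes, 0 passed the limma threshold, with a median log2 change of 0.60; 2 had an unadjusted p under 0.05, edgeR called 0 and DESeq2 called 1, H2-Eb1.

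Markers of other cells that such a sort could hold were examined in the same way. The 3 neutrophil genes found in the table, of 11 listed, summed to at most 18.6 normalized counts in KO and 23.9 in WT libraries. Monocyte genes, 6 of 6, summed to 37.0 to 133 in KO and 86.9 to 139 in WT libraries, and F13a1 among them fell in KO (log2 change -3.26, limma adjusted p = 0.0362), a call that edgeR did not make. Erythroid genes, 9 of 11, summed to 37.2, 185, 314 and 20.5 in KO libraries and 34.9, 21.9, 183 and 36.9 in WT libraries, high in KO replicates 2 and 3 and in WT replicate 3 but not in WT replicate 2. Dendritic cell genes, 6 of 9, summed to 46.1 to 79.7 in KO and 40.5 to 133 in WT libraries, and the B cell marker Ms4a1 was at 0 in 3 libraries of each group. B cell genes, 9 of 12, summed to 6132 to 7381 in KO and 5797 to 9542 in WT libraries, mostly from Ighm. Of them, Cd79b (log2 change -1.17, limma adjusted p = 0.00407) and Cd22 (log2 change -2.69, limma adjusted p = 0.0151) fell in KO. Cd22 was named after its values were seen. The dendritic cell, erythroid, plasma cell, platelet, NK cell, mast cell and stromal lists had 0 genes past the threshold by limma, edgeR or DESeq2, and 0 at an unadjusted p under 0.05, from 1 to 3 tested genes each. The plasmacytoid dendritic cell list had 0 by limma and edgeR, 1 at an unadjusted p under 0.05 and 1 by DESeq2, Pacsin1, which was at 2165 ± 105 in KO and 2750.0 ± 343 normalized counts in WT libraries (SD, n = 4 each). T cell and Treg genes had 1 higher, Il2ra (log2 change 0.63, limma adjusted p = 0.00114), and 2 lower, Cd5 and Ikzf2. By limma, 9 of these 12 genes had an unadjusted p under 0.05, and their median log2 change was -0.23. edgeR called the same 3 genes. DESeq2 called 6, adding Cd3e, Cd3g and Cd4, which had lower means in KO. Over all genes tested, 9.47% passed the limma threshold. The part that erythroid RNA and the lower T cell sums have in the macrophage gene levels was not tested.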

How the data were processed

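Polyadenylated RNA of sorted Treg was sequenced in 8 libraries, 4 per genotype. The deposited table holds signal values, which its name calls DESeq2-normalized counts, that is, reads of a gene scaled by the authors with 1 size factor per library. Per the submitters' processing notes, the tools were Trimmomatic 0.39, STAR 2.7.6a, SAMtools 1.11, featureCounts, Subread 2.0.1 and DESeq2 1.21, with build GRCm38; their settings, the strand and the annotation are not given in the sources used here. In every library 100% of values were whole multiples of the smallest step within 0.001, so reads and depth were recovered, and edgeR 4.0.16 on those reads called 585 genes higher and 661 lower. Symbols, positions and exonic lengths came from GENCODE M21, where 19785 of 19826 IDs matched and 41 did not. Listed genes had at least 11 reads in total.

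Genes with a normalized count of 10 or more in at least 4 libraries were tested, which kept 13847 and removed 5979. Values as log2(normalized count + 1), a scale that understates changes of low genes, were compared with limma 3.58.1 in R 4.3.3 (trend), two-sided, and p-values were adjusted by Benjamini-Hochberg over all genes tested, with 0.05 as the threshold. Every log2 change is KO minus WT. limma, edgeR and DESeq2 1.42.0 were tested on simulated counts. The members and all lists were chosen with earlier results of these data known. The rule for named genes took every member, Pdpk1, Foxp3 and the 20 genes most like the red pulp level (log2 range of at least 2). It also took up to 4 genes with the highest mean normalized count of each of 15 other lists. Not all of these list genes are described, and other named genes were chosen after their values were seen. A gene that the rule selects is not reported here. PCR duplicates are not marked, so floors cover counting error only. Alternatives were other tools, scalings, pseudocounts and filters, a replicate block and leaving out each library.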

Additional observations from a re-analysis of the deposited data

Results flagged for a closer look

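Of 218 sets of 4 libraries examined, one group of one gene or sum at a time, 19 had a library whose gap to its nearest neighbour was over 0.829 of the range of the group. Chance would flag about 1 in 20 such sets only if their values were normally distributed and the sets independent. These sets hold counts from the same libraries, and many of the genes share an order of libraries. A set in which only 1 library has any reads is always flagged, as Fcgr4 and Ncr1 were in WT libraries. The number flagged therefore cannot be set against that rate, and the libraries below are given as a description. WT replicate 2 stood above the other WT libraries for Slc40a1 (268.92 normalized counts), Fcgr4 (19.8), Fcer1g (48.99), Cadm1 (31.27), Clec4n (32.31), Ncr1 (11.47) and the sum of the 14 red pulp and resident genes (2733.98). KO replicate 2 stood above the other KO libraries for Fcgr1 (39.45), Fcgr4 (41.64), Lrfn1 (109.58) and Col1a2 (1.10). WT replicate 3 stood above the other WT libraries for Itgam (34.06), Fn1 (8.29), Csf3r (6.44), S100a9 (12.89), Hbb-bs (61.68) and Hba-a1 (49.71). WT replicate 4 stood below the others for Cd68 (28.98), and WT replicate 1 above the others for Pdgfrb (1.13). The values of Col1a2 and Pdgfrb are 1 read each, which a value of 0 also allows.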

How the results depend on the processing

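Leaving out 1 library gave 389 to 588 higher and 495 to 724 lower genes over the whole table, against 611 and 700 with all libraries, and the fewest higher genes, 395 and 389, came without KO replicate 3 and without WT replicate 4. For the members it gave 4 to 16 higher, against 12, and 2 lower each time. For the other lists it gave 1 to 7 higher (7 without KO replicate 1, 5 without WT replicate 2) and 5 to 7 lower, against 3 and 7. The log2 ratio of the summed red pulp and resident genes, 0.884, was 0.462 to 1.145 with 1 library left out, 1.948 without Marco, Sirpa and Axl and 2.048 as a mean of log2 values; that of the general myeloid genes, 1.004, was 0.893 to 1.195. Median correlations with group means subtracted were 0.685, 0.43 and 0.565, by construction without the group difference. With the replicate number as a block, the table had 1243 higher and 1292 lower genes, the other lists 10 and 17, and the members 18 higher. Deviations of same-numbered KO and WT libraries correlated at 0.217, 0.092, 0.048 and 0.113, and those of differently numbered libraries at -0.156 to 0.109. The labels do not say whether equal numbers are pairs, and the main fit did not pair them. These values do not settle it. In both groups the mean log2 level of the red pulp and resident genes was highest in replicate 2 and lowest in replicate 1. Whether equal numbers share a source was not tested. Of 28 members tested, 27 kept 1 sign under 16 settings; Cd14 ran from -0.355 to 1.703. In all, 1244 values were recomputed over 80 genes, of which 32 were judged by the threshold. The others, the members and the genes most like the red pulp level, were judged only by a shift under 1 SD. By these rules 1210 values stayed, 15 passed the threshold and 19 no longer did. Among the genes judged by the threshold, 0 called values changed sign. Member calls that were lost, as in the fall from 12 to 4, are not among the 19. The causes of these shifts were not tested. Depth limits the genes near 0, where 3 reads equal up to 3.38 normalized counts.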

Other observations

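Further macrophage genes, named after their values were seen, also varied between libraries of 1 group. Itgad, an integrin chain of red pulp macrophages, had 37.2, 238, 140.3 and 3.41 normalized counts in KO libraries, against 30.4, 77.1, 9.21 and 32.5 in WT libraries. Slc11a1, the phagosomal metal transporter NRAMP1, had 25.1, 83.3, 124 and 3.41 in KO libraries, against 0, 33.4, 12.9 and 1.76 in WT libraries. Timd4, a receptor for phosphatidylserine, had 41.9, 34.0, 24.7 and 3.41 in KO libraries, against 0, 6.25, 0 and 1.76 in WT libraries, and was thus high in KO replicate 1, where most genes of the set were low. Timd4, Folr2 and Lyve1 were too low to be tested, and Itgad and Slc11a1 did not pass the limma threshold. Folr2 and Lyve1, markers of other resident macrophages, were at 11.1 and 14.2 at most in KO libraries, and at 0.88 and 0 at most in WT libraries.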
